A study of Mus musculus with 16 samples.

Results

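The centromere-proximal ends of the mouse autosomes were examined as the bins of 10 kb from 3 to 4 Mb of chr1-19 in the mm10 assembly, which is the first assembled megabase after the gap that stands for each centromere. These are 1900 of 246285 autosomal bins, or 0.771% of them. Of the 1900 bins, 48 are gap from end to end and 1852 hold sequence, in all 18.5 Mb. Fragments released by AutoCUT&RUN, in which an antibody directs a nuclease to chromatin and the cut pieces are sequenced, had been profiled in haploid spermatids sorted live from adult testes by Hoechst and propidium iodide staining. The antibodies recognized H3K4me3, H3K27me3, or H3K9me3, and an IgG antibody served as the background control. Each of these 4 targets was profiled in 2 KO and 2 WT males, 2-month-old and not mated, which gave 16 libraries in 8 groups of 2. KO males were hemizygous for lesions made by CRISPR in the 3 X-linked genes of the histone variant H2A.B (ΔH2A.B/Y) and came from 1 edited strain that had been backcrossed to C57BL/6J. WT males were +/Y, and KO and WT animals with the same replicate number were taken as a pair of siblings. The labelled differences between the groups are therefore the genotype at H2A.B and the antibody, and no other treatment was given.

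Mouse chromosomes have their centromere at one tip. The tip is built from long arrays of satellite repeats, in which the major satellite forms the pericentromeric heterochromatin that merges into chromocenters. H3K9me3, laid down by the SUV39H enzymes and bound by HP1 proteins, is the mark best known for this chromatin. H3K4me3 marks the starts of active or poised genes, and H3K27me3 marks genes held silent by Polycomb. In round spermatids the chromocenters of all chromosomes gather into 1 body, and most histones are later replaced by protamines.

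The ends differed from other autosomal sequence before any fragment was counted. A bin was called a tandem-repeat bin where more than 50% of its bases matched the base a fixed distance of 20 to 600 bp away. There were 24 such bins in the ends (1.26%) and 65 in the rest of the autosomes (0.0266%). Simple and interspersed repeats masked in the assembly covered 42.2% of the ends and 33.4% of the rest, whereas GC content was 42.2% and 41.9%. Words of 25 bases, the length of the sequenced reads, were unique in the assembly at 62.9% of positions in the ends and at 74.7% in the neighboring megabase from 4 to 5 Mb. The chr14 end was almost entirely repeated, with 1.68% of such words unique, followed by the chr16 end with 41.7% and the chr4 end with 52.4%. The chr11 end was the most unique, at 85.2%.

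The tandem repeats are shown here because the bins they fill held most of the end fragments in H3K9me3 and IgG, of which 15.5% to 18.03% and 6.02% to 13.1% lay in other bins. The first 4 bins of chr9 were made of a unit of 234 bp, which is the length of the mouse major satellite. One unit lies at chr9:3014077-3014310 of mm10 on the plus strand, in which 35.5% of bases are G or C and 4 CpG occur. Capitals mark the 12-base word used to count copies, GTTTCTCATTTT, which occurred 158 times on the plus strand of the 4 bins and 0 times on the minus strand, and 77.7% of the gaps between copies were within 2 bp of 234 bp. The next 4 bins of chr9 repeat every 31 bp, shown from chr9:3042140-3042263 with 1 unit in capitals. A repeat of 21 bp filled 10 bins on 4 chromosomes, and it is shown from chr3:3029352-3029435, chr4:3065715-3065798, and chr17:3012924-3013007, each on the plus strand. In these 3 sequences capitals mark the word AGCACTGTGACA or, on chr17, its reverse complement TGTCACAGTGCT. Of all autosomal bins, 16 held 10 or more copies of that word on either strand, and 13 of those 16 lay in the ends, including all 10 bins of the 21-bp repeat. The chr10 end held a bin whose bases matched best at 74 bp, called the 74-bp repeat below. It is shown from chr10:3111770-3111917 with the first 74 bp in capitals. The stretch in capitals itself holds shorter repeats, under the 20 bp at which the search of distances began.
chr9 satellite unit: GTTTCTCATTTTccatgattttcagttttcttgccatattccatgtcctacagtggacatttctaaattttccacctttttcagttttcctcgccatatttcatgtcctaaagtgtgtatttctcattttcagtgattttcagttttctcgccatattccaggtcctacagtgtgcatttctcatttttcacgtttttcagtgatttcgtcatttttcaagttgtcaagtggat
chr9 tandem repeat: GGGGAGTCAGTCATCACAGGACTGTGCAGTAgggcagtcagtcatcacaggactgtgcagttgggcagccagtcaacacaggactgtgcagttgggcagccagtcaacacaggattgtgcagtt
chr3 tandem repeat: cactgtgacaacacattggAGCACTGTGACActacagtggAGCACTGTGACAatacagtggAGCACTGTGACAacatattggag
chr4 tandem repeat: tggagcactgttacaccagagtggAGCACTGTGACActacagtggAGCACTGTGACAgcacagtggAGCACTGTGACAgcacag
chr17 tandem repeat: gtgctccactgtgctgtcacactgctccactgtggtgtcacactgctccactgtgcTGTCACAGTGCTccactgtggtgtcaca
chr10 tandem repeat: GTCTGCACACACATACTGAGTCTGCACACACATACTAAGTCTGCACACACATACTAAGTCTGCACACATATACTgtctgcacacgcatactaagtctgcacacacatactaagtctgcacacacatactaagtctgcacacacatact

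The libraries held 559891 to 10335237 deposited fragments, and after fragments with identical coordinates were counted once, 159611 to 6746382 distinct fragments were left on chr1-19, X, and Y. Between 33.6% and 83.4% of the deposited rows repeated another row. A 95% Wilson interval of the share of fragments in the ends spanned at most 0.33 percentage points, which covers counting error only. H3K4me3 at gene starts was checked against marker genes of the cells a testis holds. Of 10 spermatid genes, 9 were above the median of all genes, with a median of 17.0 FPM against 3.24. At gene starts FPM means fragments per 1000000 distinct fragments of a library on chr1-19, X, and Y, and for bins it means fragments per 1000000 distinct fragments on chr1-19 alone, so the levels of bins and of gene starts are on different scales. The scales differ most in H3K9me3, in which 5009169 to 6746382 distinct fragments lay on chr1-19, X, and Y and 3136799 to 3963850 of them on chr1-19. Markers of spermatogonia, Sertoli cells, Leydig cells, blood cells, and endothelium were above that median in 0 of 5, 0 of 5, 0 of 5, 0 of 4, and 0 of 3 cases, and those of spermatocytes in 3 of 5. The genotype was not checked here.

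H3K9me3 fragments were concentrated in the ends. In the KO libraries 18.3% and 21.8% of distinct autosomal H3K9me3 fragments lay there, and in the WT libraries 17.2% and 18.9%. The IgG control was the next highest, with 16.3% and 6.79% in KO and 11.3% and 8.75% in WT. For H3K4me3 the shares were 2.84% and 1.57% in KO and 2.63% and 1.83% in WT. The H3K27me3 libraries had 1.57% and 5.68% (KO) and 1.66% and 2.06% (WT), so that KO replicate 2 stood apart from the other 3 H3K27me3 libraries. Each H3K9me3 library was above each library of the other targets. All values are shares of a library, in which more fragments at the ends cannot be told apart from fewer fragments elsewhere.

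The 4 chr9 satellite bins supplied most of the end fragments in each H3K9me3, IgG, and H3K27me3 library, but in 1 of the 4 H3K4me3 libraries. These bins alone held 14.6% and 18.2% of distinct autosomal H3K9me3 fragments in KO and 13.9% and 15.5% in WT. In IgG they held 15.3% and 5.85% in KO and 10.3% and 7.74% in WT, in H3K27me3 0.816%, 4.73%, 0.908%, and 1.27%, and in H3K4me3 1.47%, 0.427%, 1.22%, and 0.551%, in the order KO replicate 1, KO replicate 2, WT replicate 1, and WT replicate 2. The satellite supplied 80.1% to 83.4% of the end fragments in H3K9me3, 86.2% to 93.9% in IgG, 52.1% to 83.2% in H3K27me3, and 27.2% to 51.8% in H3K4me3. Without the 4 satellite bins the shares of the ends were much more alike between libraries, at 3.29% to 3.63% for H3K9me3, 0.926% to 1.01% for IgG, 1.14% to 1.41% for H3K4me3, and 0.749% to 0.953% for H3K27me3. Per assembled megabase, the satellite bins held 11458 ± 1668 (SD, n = 4) times as many H3K9me3 fragments as the rest of the autosomes and 6640 ± 3104 times as many IgG fragments. The ratio was 1198 ± 1194 for H3K27me3, with the highest value in KO replicate 2, and 559 ± 312 for H3K4me3. The 4 bins span 40 kb of this satellite, and copies of the unit elsewhere in the assembly were not counted. Fragments from any array that matches it can be placed in these bins, so these ratios do not measure a level per copy.

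**Figure D1:**
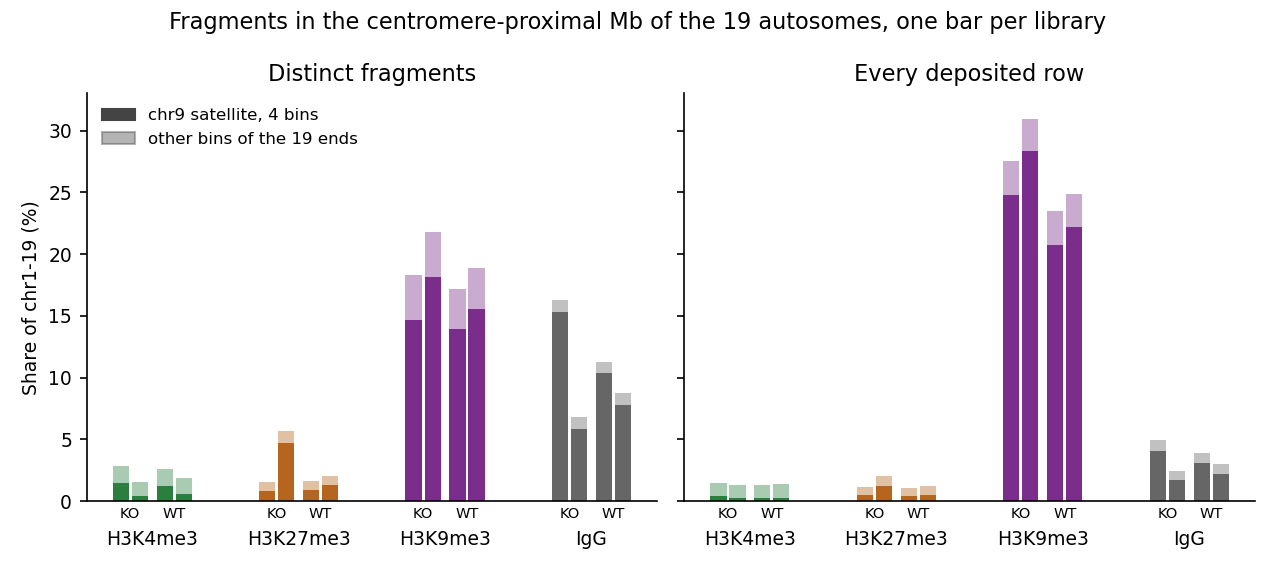
Share of autosomal fragments (%) in the ends, with 1 bar per library, dark for the 4 chr9 satellite bins and light for the other bins, for distinct fragments (left) and for all deposited rows (right). H3K9me3 reached 17.2% to 21.8% of distinct fragments and 23.5% to 30.9% of rows, whereas IgG fell from between 6.79% and 16.3% to between 2.42% and 4.93% when rows were counted.

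The way repeats of a fragment were counted moved H3K9me3 and IgG in opposite directions. When each deposited row was counted, H3K9me3 in the ends rose to 27.6% and 30.9% in KO and 23.5% and 24.9% in WT, and IgG dropped to 4.93% and 2.42% in KO and 3.88% and 2.996% in WT. In the satellite bins a distinct H3K9me3 fragment was listed 2.64 to 2.94 times on average, compared with 1.54 to 1.73 times in the rest of the autosomes. For the other targets the satellite was listed less often than the rest: 1.52 to 1.73 against 5.66 to 7.14 times in IgG, 1.24 to 1.48 against 2.02 to 6.502 times in H3K4me3, and 1.17 to 1.40 against 2.53 to 5.49 times in H3K27me3. Over the ends as a whole, the log2 ratio of rows per distinct fragment to that in the rest was 0.63 ± 0.11 for H3K9me3, -1.69 ± 0.15 for IgG, -0.68 ± 0.39 for H3K4me3, and -0.87 ± 0.48 for H3K27me3 (SD, n = 4 each). In each target the 4 animals had the same sign (exact two-sided sign-flip permutation test, p = 0.125, the smallest 4 animals allow). Without the tandem-repeat bins the H3K9me3 ratio turned to -0.17 ± 0.10, with 0 of 4 animals above 0.

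Which of the marks exceeded the control in the ends depended on the satellite. The density of distinct fragments per assembled megabase, as the log2 ratio of ends to rest, was 4.91 ± 0.18 for H3K9me3, 3.88 ± 0.61 for IgG, 1.63 ± 0.90 for H3K27me3, and 1.5003 ± 0.42 for H3K4me3 (SD, n = 4 each, 4 of 4 animals above 0). On the linear scale the H3K9me3 ratio was 30.1-fold. Each of these 4 differences had an exact sign-flip permutation p of 0.125, the smallest possible. Without KO replicate 2 the H3K27me3 value was 1.19. Leaving out the 24 tandem-repeat bins lowered the log2 ratio to 2.34 ± 0.13 for H3K9me3, 0.78 ± 0.14 for H3K4me3, 0.44 ± 0.12 for IgG, and 0.10 ± 0.19 for H3K27me3. H3K9me3 thus remained 5.08-fold denser in the ends outside tandem repeats, and H3K27me3 was above 0 in 2 of 4 animals (exact sign-flip permutation p = 0.5).

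Measured against IgG of the same animal, H3K9me3 was higher in the ends by 1.03 ± 0.75 on the log2 scale, and H3K4me3 and H3K27me3 were lower, at -2.38 ± 0.25 and -2.25 ± 1.44 (SD, n = 4 each). All 4 animals had the same direction in each mark (exact sign-flip permutation p = 0.125, the smallest possible). Without the pairing by animal, an exact permutation test of 4 against 4 libraries gave p = 0.0286 for each of the 3 marks. Outside tandem repeats the H3K9me3 excess over IgG was 1.90 ± 0.18 (4 of 4 animals), H3K4me3 turned to 0.34 ± 0.11 (4 of 4 animals), and H3K27me3 was -0.34 ± 0.29 (1 of 4 animals above 0, exact sign-flip permutation p = 0.25). When rows were counted the H3K9me3 excess was 3.35 ± 0.60. When the count was limited to fragments of at least 150 bp it was 0.27 ± 0.99, with 2 of 4 animals above 0 (exact sign-flip permutation p = 0.75).

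H3K9me3 was also denser in the ends than in comparison regions of the same size. With tandem-repeat bins left out, its log2 density in the ends exceeded that from 4 to 5 Mb by 1.37 ± 0.08 and that in the last assembled megabase of the chromosomes by 2.23 ± 0.22 (SD, n = 4). Relative to IgG these differences were 1.72 ± 0.30 and 1.98 ± 0.24, and each held in 4 of 4 animals (exact sign-flip permutation p = 0.125, the smallest possible). H3K4me3 exceeded the same regions by 0.11 ± 0.04 and 0.44 ± 0.15. H3K27me3 differed from the region of 4 to 5 Mb by -0.12 ± 0.41 and from the last megabase by -0.37 ± 0.15, the latter lower in 4 of 4 animals (exact sign-flip permutation p = 0.125).

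The 19 ends were far from uniform. For H3K9me3, each of the 19 ends was above the rest of the autosomes in all 4 libraries. The highest were chr9 with a log2 density of 8.84 ± 0.20 (459-fold), chr11 with 4.67 ± 0.22, and chr16 with 3.46 ± 0.16, closely followed by chr14 with 3.43 ± 0.10 and chr3 with 3.31 ± 0.21. The ends of chr16, chr14, and chr3 overlapped in their 4 libraries. The lowest were chr2 with 0.46 ± 0.36, chr5 with 0.63 ± 0.30, and chr7 with 0.74 ± 0.46, and these also overlapped with one another. The IgG density was within 1 log2 unit of the rest for 15 of the 19 ends, and the exceptions were chr9 at 7.95 ± 0.66, chr14 at 1.69 ± 0.19, chr12 at 1.60 ± 0.36, and chr11 at 1.08 ± 0.15. Its lowest ends were chr17 at -0.50 ± 0.69, chr2 at -0.25 ± 0.11, and chr19 at -0.19 ± 0.31. With every deposited row counted, mean IgG was 6.02 at chr9, -0.03 at chr14, 0.81 at chr12, and 1.61 at chr11. The IgG excess of the chr14 end thus depended on how repeated rows were counted.

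H3K4me3 and H3K27me3 each had ends on either side of the autosomal level. For H3K4me3, 13 ends were above it in all 4 libraries and 5 were below it in all 4. The highest were chr9 at 4.35 ± 0.85, chr14 at 3.15 ± 0.59, and chr11 at 1.69 ± 0.26, and the lowest were chr3 at -1.17 ± 0.36, chr1 at -1.15 ± 0.27, and chr10 at -1.08 ± 0.18. The 3 lowest ends hold 1, 1, and 5 protein-coding starts and the chr14 and chr11 ends 19 and 20, but the chr8 end, which holds the most with 25, was at 0.39 ± 0.12. For H3K27me3, 7 ends were above and 7 below in all 4 libraries. The highest were chr9 at 5.17 ± 1.19, chr14 at 1.37 ± 0.32, and chr7 at 1.18 ± 0.11, and the lowest were chr15 at -1.26 ± 0.58, chr3 at -1.22 ± 0.40, and chr2 at -1.10 ± 0.29. With every deposited row counted, mean H3K27me3 was 3.87 at chr9, 0.13 at chr14, and 1.19 at chr7. Mean H3K4me3 was then 2.98 at chr9, 1.76 at chr14, and 1.83 at chr11.

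**Figure D2:**
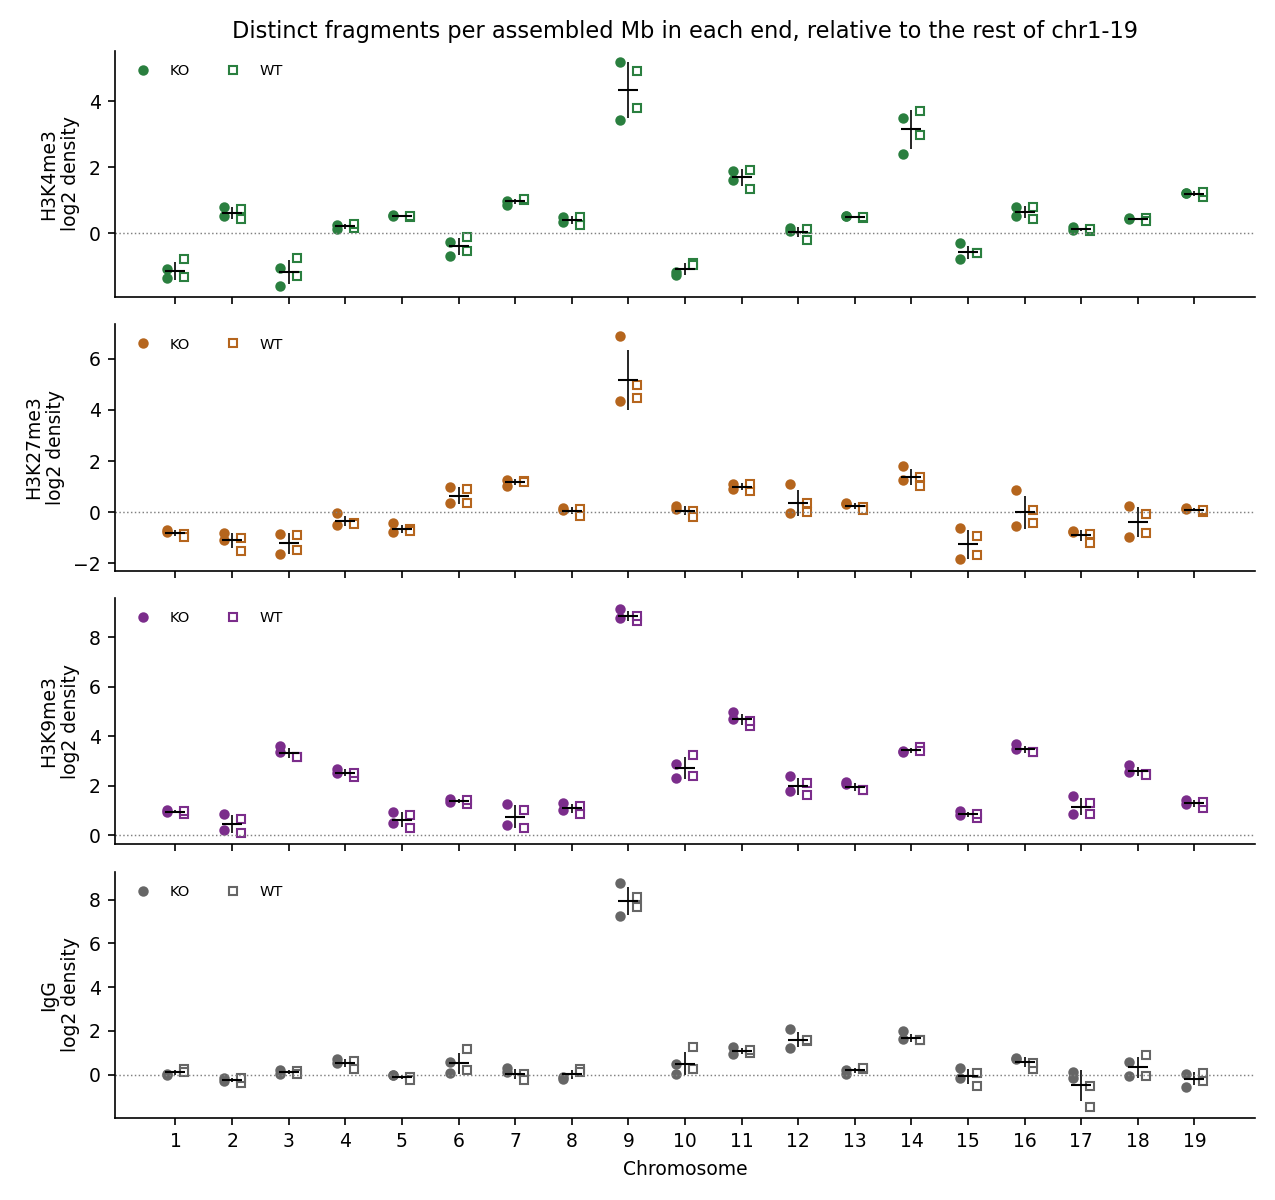
Log2 ratio of the density of distinct fragments in each chromosome's end to that in the rest of chr1-19 (y axis) by chromosome (x axis), for the 4 targets from top to bottom. Filled circles are KO and open squares WT libraries, and bars show the mean ± SD of 4 libraries. The chr9 end is the highest in each target, and H3K9me3 lies above 0 at all 19 ends.

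Set against IgG in windows of 1 Mb by limma-voom with the animal as a block, H3K9me3 was higher at 11 of the 19 ends and lower at 0 (Benjamini-Hochberg adjusted p under 0.05). Over all 2403 windows, 6.03% were called higher and 87.2% lower. The largest excesses were at chr11 with a log2 fold change of 2.94 (adjusted p = 1.66e-06), chr3 with 2.56 (adjusted p = 3.40e-06), and chr16 with 2.23 (adjusted p = 3.71e-06). The chr9 end, which has the most H3K9me3, was at 0.27 (adjusted p = 0.383), and it also has the most IgG. The median difference was 0.81 over the 19 ends and -1.36 over all windows. These fits were scaled by the fragments on chr1-19, X, and Y, of which the satellite and the sex chromosomes hold much in H3K9me3, and the windows were therefore also scaled by their median. All 19 ends were then called higher, with a median of 2.11, when 21.4% of all windows were called higher.

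H3K4me3 was higher than IgG at 9 ends and lower at 6, when 38% and 37.4% of all windows were called higher and lower. The 4 largest excesses were at chr14 with a log2 fold change of 1.68, chr19 with 1.60, chr7 with 1.13, and chr2 with 1.06, and the largest deficits were at chr9 with -3.38, chr12 with -1.37, and chr10 with -1.36. H3K27me3 was higher at 3 ends, namely chr7 with 1.38, chr6 with 0.75, and chr19 with 0.57. It was lower at 7, with chr9 at -2.48 and chr3 at -1.06. Over all windows 31.9% were called higher and 40.6% lower. With the windows scaled by their median, H3K27me3 was higher at 6 ends and lower at 3, when 36.7% and 38.6% of all windows were called higher and lower, so the balance of its calls depended on the scaling. The H3K4me3 counts remained at 9 and 6. The adjusted p-values of the calls before this scaling were between 8.32e-07 and 0.0158.

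Summed over the 19 ends, H3K9me3 was highest in the first 200 kb and declined beyond them, with no steady fall from 500 kb on. With tandem-repeat bins left out, the 19 ends summed in steps of 100 kb gave log2 densities of 3.53 ± 0.15 in the first step and 4.26 ± 0.17 in the second, then 2.18 ± 0.15, 1.94 ± 0.11, and 1.499 ± 0.12 (SD, n = 4). From 500 kb on, the values were between 0.81 and 1.35. The second step holds the first assembled bases of chr10 and chr11, whose first 100 kb are gap. It also holds the 5 bins outside tandem repeats with the most H3K9me3, all at the chr11 end. IgG was raised in the first steps too, at 0.84 ± 0.20 and 1.80 ± 0.32, and was between -0.18 and 0.26 in the other 8 steps. H3K4me3 showed no such decline, with values between 0.32 and 1.201, and H3K27me3 was between -0.98 and 0.79. Over longer distances, the median H3K9me3 density of the 19 chromosomes was 1.36 ± 0.09 in the first megabase and between -0.62 and 0.16 in each of the next 9. The same medians in the first megabase were 0.35 ± 0.08 for H3K4me3, 0.12 ± 0.07 for IgG, and -0.23 ± 0.27 for H3K27me3. Medians and sums differ in this respect. Summed over the 19 chromosomes, the H3K9me3 density from 4 to 5 Mb was 0.93 and 1.08 in KO and 0.89 and 0.98 in WT. These sums were close to the 0.81 to 1.35 of the ends beyond 500 kb.

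**Figure D3:**
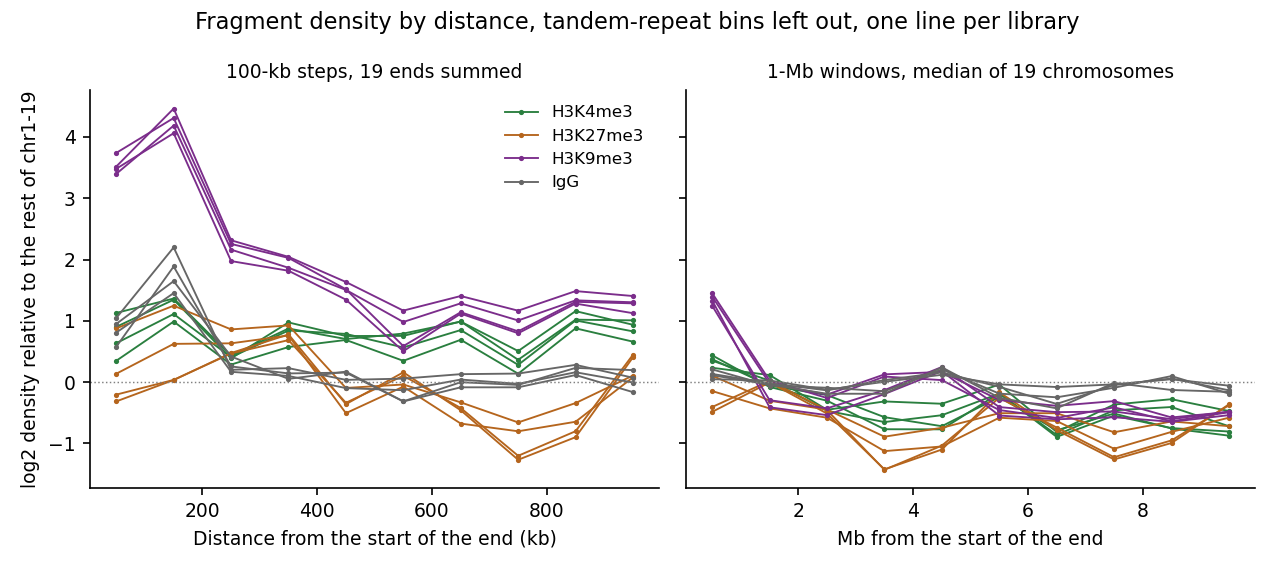
Log2 density of distinct fragments relative to the rest of chr1-19 (y axis) by distance from the start of the ends (x axis), with tandem-repeat bins left out and 1 line per library. In steps of 100 kb (left), H3K9me3 falls from between 3.40 and 4.46 in the first 200 kb to between 0.50 and 1.48 beyond 500 kb, and by 1-Mb windows (right, median of 19 chromosomes) it stands out in the first megabase.

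Bins were next ordered by how much of their sequence is unique. In the 198 bins with under 10% of 25-base words unique, the H3K9me3 log2 density was 3.38 ± 0.08, and it was 2.77 ± 0.10 in the 393 bins with 10% to 50%, 2.42 ± 0.22 in the 767 bins with 50% to 90%, and -0.47 ± 0.82 in the 467 bins with 90% or more (SD, n = 4). Tandem-repeat bins were left out. In the most unique sequence of the ends H3K9me3 was on average below the level of the rest as a whole, which was not split by uniqueness. The 4 libraries spread most in this class. IgG followed a similar order, with 1.34 ± 0.16, 1.21 ± 0.24, 0.03 ± 0.06, and -0.81 ± 0.13. H3K4me3 was 2.29 ± 0.56 in the least unique class and 0.34 ± 0.26, 0.19 ± 0.15, and 0.66 ± 0.17 in the others. H3K27me3 was 0.84 ± 0.42, 0.21 ± 0.47, -0.27 ± 0.12, and 0.06 ± 0.22. Across 1825 bins, which share libraries and neighbors, the rank correlation of mean density with the unique share was -0.76 for H3K9me3, -0.53 for IgG, -0.42 for H3K27me3, and -0.32 for H3K4me3, given as a description. Bins of the ends, 0.771% of all bins, made up 21 of the 100 and 79 of the 1000 autosomal bins with the most H3K9me3. The same counts were 7 and 21 for IgG, 9 and 37 for H3K4me3, and 5 and 8 for H3K27me3.

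The repeats of 21, 31, and 74 bp carried more H3K9me3 than the other marks. The median bin of the autosomes had 0.902 FPM of H3K9me3 and the median bin of the ends 4.04 FPM. The 10 bins of the 21-bp repeat had means of 56.4 to 343 for H3K9me3, compared with 4.26 to 38.4 for IgG, 0.785 to 7.20 for H3K4me3, and 0.199 to 13.8 for H3K27me3. In none of these 10 bins did an H3K9me3 library overlap with an IgG library. The highest was chr4:3080001-3090000, with 309 to 376 FPM in H3K9me3 and 21.2 to 64.2 in IgG. The 4 bins of the 31-bp repeat on chr9 had means of 64.1 to 76.8 for H3K9me3 and 0 to 4.62 for IgG, right beside satellite bins with 30976 to 43817 for H3K9me3 and 17601 to 29187 for IgG. The 5 bins with repeats of 22 or 30 bp had H3K9me3 means of 12.7 to 38.4, and at chr4:3170001-3180000 an H3K27me3 library reached 35.7 FPM, above the 18.6 to 26.5 of the H3K9me3 libraries. The bin of the 74-bp repeat on chr10 had 1488 FPM in H3K9me3, with a range of 822 to 2391, and IgG there ranged from 33.9 to 485 FPM. It also had 6.42 to 32.5 FPM of H3K4me3 and 0 to 100.7 of H3K27me3, when the median autosomal bin had 1.03 and 1.02.

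Outside tandem repeats, the 5 bins with the most H3K9me3 were all at the chr11 end, from chr11:3100001-3110000 and from 3160001 to 3200000. The last 4 lie over Sfi1, which encodes a centrin-binding protein of the centrosome, and its neighbor Drg1, a GTP-binding protein gene. The bin chr11:3190001-3200000, which holds the start of Sfi1, had 2024 and 1598 FPM in KO and 1559 and 1305 in WT, against 38.1 to 85.5 in IgG. The 3 bins before it had means of 766, 778, and 1194 FPM. These 4 bins were 78.2% to 86.2% unique. The bin at chr11:3100001-3110000, with no annotated gene and 53.2% unique words, had 1190 ± 142 for H3K9me3 and 152 ± 66.9 for IgG.

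IgG itself was highest outside tandem repeats at chr12:3100001-3110000, where its 4 libraries had 859 and 365 FPM in KO and 569 and 514 in WT. H3K9me3 had 448 and 600.5 in KO and 416 and 526 in WT there, within the range of IgG. When each deposited row was counted the targets no longer overlapped, with 1232 and 1610 in KO and 995 and 1219 in WT for H3K9me3 against 147 to 282 for IgG. The neighboring bin chr12:3110001-3120000 had 256 ± 50.6 for IgG and 395 ± 107 for H3K9me3. At chr6:3120001-3130000 a mean of 80.6 for IgG rested on WT replicate 1, with 256 FPM against 11.4 to 33.9 in the other 3 libraries. None of these 3 bins holds an annotated gene, and 21.9% to 31.2% of their words were unique.

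H3K4me3 outside tandem repeats was highest in 5 bins of the chr14 end, with means of 160 to 183 FPM. They lie over Gm10340, Gm3005, Gm3020, Gm3002, and Gm3095, members of a family of nearly identical genes, and at most 4.26% of their words are unique, so fragments cannot be assigned to 1 copy. In chr14:3820001-3830000, which holds Gm3002, the libraries had 210 and 87.3 FPM in KO and 287 and 148 in WT, against 0 to 17.1 in IgG. KO replicate 2 was the lowest library in each of the 5 bins. H3K27me3 outside tandem repeats was highest at chr6:3200001-3210000 over the processed pseudogene Gm2651, with 223 and 473 in KO and 216 and 408 in WT, against 5.70 to 71.1 in IgG. The bin chr19:3320001-3330000, which holds the start of Cpt1a, had 85.8 ± 21.1, and IgG was at 0 in 3 of 4 libraries there. By contrast, H3K27me3 in chr12:3100001-3110000 had 34.5 and 339 FPM in KO and 30.7 and 61.2 in WT, so its mean of 116 rested on KO replicate 2. That bin had means of 498 for H3K9me3 and 577 for IgG. In chr18:3000001-3010000 H3K27me3 had 46.1 and 188 in KO and 49.6 and 153 in WT. Its mean of 109 there came with 629 of H3K9me3 and 53.4 of IgG.

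Fragment lengths in the satellite differed from those in other chromatin. The median length of distinct satellite fragments was 309 to 385 bp in the 16 libraries, compared with 83 to 192 bp in the other bins of the ends and 84 to 192 bp in the rest. Fragments of at least 300 bp made up 51.7% to 61.5% in the satellite, 9.55% to 20.9% in the other bins, and 9.92% to 18.1% in the rest. The length distributions repeated at 233 to 236 bp, and at 234 bp in 13 of 16 libraries, with a correlation of 0.474 to 0.914 between the curve and itself shifted by that length. Both ends of a fragment from a tandem array can fit at several units, so the aligner's choice of place can set the length as well as the position. This was not tested. The lengths of single molecules cannot be told apart from such choices.

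**Figure D4:**
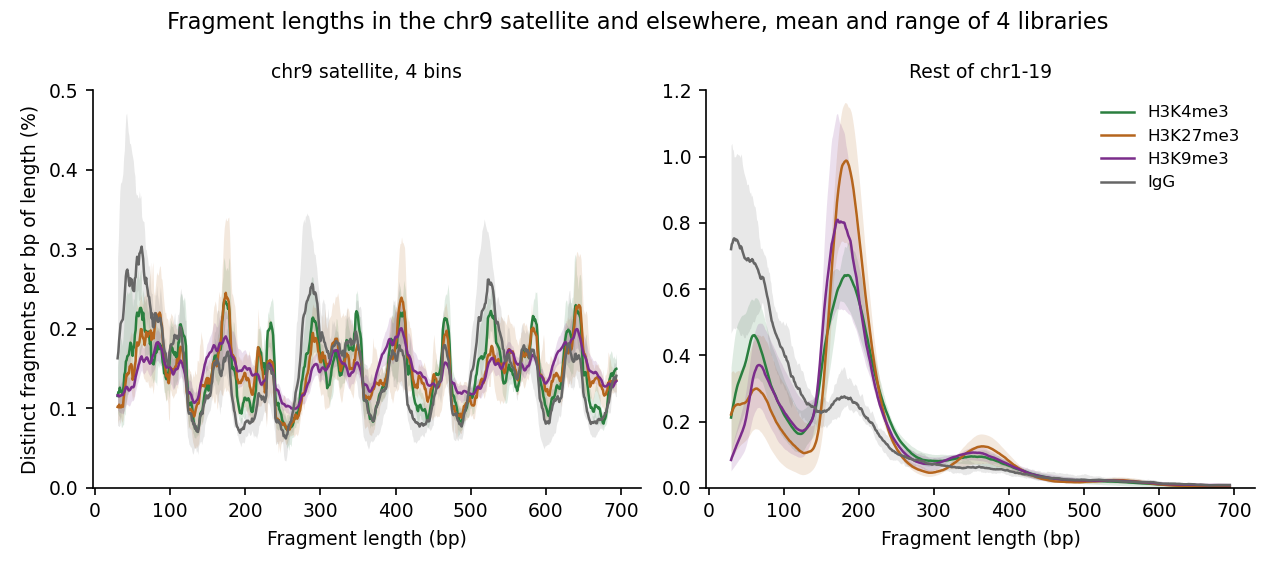
Share of distinct fragments per bp of length (%, y axis, smoothed) by fragment length (bp, x axis) in the 4 chr9 satellite bins (left) and the rest of chr1-19 (right), whose y axes differ. Lines are means and bands the lowest and highest of 4 libraries per target. Satellite lengths reach 700 bp with peaks that recur at about 234 bp in each target, whereas in the rest at most 18.1% of fragments are 300 bp or longer.

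Within the unit, satellite fragments of nucleosome size were not spread evenly. Midpoints of fragments of 140 to 200 bp peaked 192 to 199 bp after the anchor word in 13 of 16 libraries and 78 to 79 bp after it in the other 3, which were H3K4me3 WT replicate 1, IgG KO replicate 1, and IgG WT replicate 1. At the peak, H3K9me3 had 1.91 to 2.33 times the mean over the unit, from 42722 to 58561 fragments per library. IgG had 3.37 to 5.05 times the mean, from 699 to 2115 fragments. The profiles over the unit had a median correlation of 0.85 (0.49 to 0.98) over 96 pairs of libraries of different targets and of 0.90 (0.58 to 0.996) over 24 pairs of the same target, given as descriptions. The aligner's choice of unit for either read can set the length and with it the midpoint, so the place within the unit may depend on that choice too. This was not tested either.

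The ratio of small fragments (at most 120 bp) to large fragments (at least 150 bp) was lower in the ends than elsewhere for 3 of the 4 targets. For IgG the ratio was 0.408 and 0.339 in KO and 0.290 and 0.281 in WT, compared with 2.002, 1.45, 1.37, and 1.05 in the rest of the same libraries. For H3K4me3 it was 0.344 and 0.486 in KO and 0.213 and 0.261 in WT, compared with 0.553, 0.642, 0.326, and 0.328. For H3K9me3 it was 0.183 and 0.243 in KO and 0.154 and 0.213 in WT, compared with 0.246, 0.551, 0.165, and 0.387. The log2 differences were -2.14 ± 0.17, -0.51 ± 0.17, and -0.64 ± 0.48 (SD, n = 4), each below 0 in 4 of 4 animals (exact sign-flip permutation p = 0.125, the smallest possible). For H3K27me3 the difference was -0.28 ± 0.52, with 2 of 4 animals below 0 (exact sign-flip permutation p = 0.5). Without tandem-repeat bins it was -0.08 ± 0.15 for IgG, -0.19 ± 0.15 for H3K4me3, 0.11 ± 0.04 for H3K9me3, and 0.19 ± 0.14 for H3K27me3. In the satellite alone it was -2.40 ± 0.15 for IgG and -0.83 ± 0.58 for H3K9me3. The direction also depended on the longest fragments. With large fragments limited to 150 to 250 bp, the difference was -0.42 ± 0.14 for IgG but 0.018 ± 0.050 for H3K4me3, 0.80 ± 0.42 for H3K9me3, and 0.80 ± 0.095 for H3K27me3, the last 2 above 0 in 4 of 4 animals (exact sign-flip permutation p = 0.125).

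KO and WT were compared first for the density of the ends as a whole. For H3K9me3 the log2 density was higher in KO by 0.18, with differences of 0.11 and 0.26 in the 2 pairs and an SD of 0.18 between replicates (exact permutation p = 0.667). When each row was counted the difference was 0.37, with 0.31 and 0.43 in the pairs, and outside tandem repeats it was 0.20, with 0.21 and 0.19. In both cases the groups did not overlap (exact permutation p = 0.333, the smallest that 2 against 2 allow). In the satellite bins alone the difference was 0.19 (0.09 and 0.28 in the pairs, exact permutation p = 0.667) for distinct fragments and 0.41 (0.34 and 0.48, exact permutation p = 0.333) for rows. For H3K27me3 the difference of 0.72 was made of -0.08 in 1 pair and 1.52 in the other. For H3K4me3 it was -0.05 (0.12 and -0.23), and for IgG 0.11 (0.62 and -0.40), and the exact permutation p was 1 in these 3 targets. The pairs thus went in opposite directions in each target except H3K9me3.

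By chromosome, both pairs had more H3K9me3 in the KO animal at 17 of 19 ends and less at chr10 (-0.36 and -0.09) and chr14 (-0.21 and -0.03), when both pairs were higher in 14% and lower in 51.9% of all 2403 windows of 1 Mb. The chr10 end includes the bin of the 74-bp repeat, with 822 to 2391 FPM of H3K9me3. Its difference without that bin is not given. The largest mean differences were at chr3 with 0.33 and chr11 with 0.31. The 4 libraries did not overlap at 6 of these 17 ends and at 1 of the 2 lower ends, compared with 3% and 14.7% of all windows. The other targets had fewer ends with the same direction in both pairs, with 7 higher and 0 lower for H3K27me3, 5 and 6 for H3K4me3, and 7 and 5 for IgG. The shares of all windows were 15.3% and 22.6% for H3K27me3, 28.2% and 30.7% for H3K4me3, and 30.7% and 22.5% for IgG. The 19 ends share their libraries and their scaling, so these counts are not independent of one another.

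No end passed the test across all windows. In windows of 1 Mb, limma-voom called 0 of 19 ends for each of H3K4me3, H3K27me3, H3K9me3, and IgG, when 0% of all 2403 windows were called in each. At an unadjusted p under 0.05 there were 0 ends for each of the marks and 1 for IgG, when 0.0416%, 0%, 0.0832%, and 1.54% of all windows passed for H3K4me3, H3K27me3, H3K9me3, and IgG. limma-trend called 0 ends in each target and, over all windows, 1 for H3K27me3. The H3K9me3 differences of the ends lay between -0.28 and 0.28 with a median of 0.10, beside a median of -0.16 over all windows, and 17 were above 0. This median turned to -0.06 with every row counted, -0.04 when KO replicate 2 was left out, and -0.03 when WT replicate 1 was, beside -0.27, -0.19, and -0.17 over all windows, so the ends still lay above the median window. It was 0.24 with scaling by the median window, beside -0.01 over all windows, and leaving out KO replicate 1 or WT replicate 2 gave 0.20 and 0.21, beside -0.07 and -0.16. With the pair as a block, 2 ends were called for H3K9me3: chr3 was higher in KO by 0.27 (adjusted p = 0.0380) and chr10 lower by 0.26 (log2 fold change -0.26, adjusted p = 0.0297). The bin of the 74-bp repeat in the chr10 end was itself at -0.39 in the blocked fit of bins. The end was not fitted without it. The block called 599 windows in all, or 24.9%, of which 62 were higher and 537 lower in KO. With the block and scaling by the median window, 2 ends were called and both were higher in KO, when 3.91% of all windows were called, 91 higher and 3 lower.

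In single bins the fit called 1 bin of the ends for H3K4me3, 0 for H3K27me3, 0 for H3K9me3, and 0 for IgG, of 1189, 784, 1849, and 112 bins with at least 10 fragments. Over all autosomal bins 0.00456%, 0%, 0.000642%, and 0% were called. The called bin, chr14:3580001-3590000 over Gm3005, had 206 and 68.1 FPM in KO and 236 and 137 in WT, so that the groups overlapped. Its log2 fold change was -0.76 with an SE of 0.14 and an adjusted p of 0.00328. Over 12 alternatives its adjusted p was between 4.497e-07 and 0.99999 and it was called in 4, and without KO replicate 2 the sign turned, to 0.35. None of its 25-base words is unique. With the pairs as a block, 11 bins were called for H3K9me3, 9 higher and 2 lower in KO, when 0.0803% of all bins were called. These included the bin of the 74-bp repeat on chr10 (-0.39), the start of Sfi1 on chr11 (0.32), chr13:3370001-3380000 (0.53), and 4 bins of the chr16 end (0.34 to 0.39). With the block and scaling by the median window, 0 bins were called for H3K9me3. The block called 5 of 112 bins for IgG, when 4.64% of all IgG bins were called, and 0 for H3K4me3 and H3K27me3, when 0.0273% and 0.0553% were.

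The ratio of small to large fragments in the ends was higher in KO in both pairs for each target. The log2 difference was 0.79 for H3K4me3 (0.69 and 0.90 in the pairs, exact permutation p = 0.333, the smallest possible) and 0.38 for IgG (0.49 and 0.27, exact permutation p = 0.333). It was 0.36 for H3K27me3 (0.56 and 0.17, exact permutation p = 0.667) and 0.22 for H3K9me3 (0.25 and 0.19, exact permutation p = 0.667), in which KO and WT libraries overlapped. With small fragments limited to 80 bp, the H3K27me3 pairs differed in direction, at 0.66 and -0.06. The same differences in the rest of the autosomes were 0.87, 0.50, 0.71, and 0.54. Outside tandem repeats they were 0.98, 0.73, 0.89, and 0.53 in the ends, and in the satellite 0.43, 0.35, 0.29, and 0.15. The IgG control moved with the marks, and its part in their differences was not tested.

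After centering on the median window of each library, 0 of the 19 ends differed in this ratio for H3K4me3, H3K27me3, and H3K9me3, when 0% of windows were called in each. For IgG the chr9 end was called, with a log2 difference of -0.27, an SE of 0.042, and an adjusted p of 2.47e-05, when 0.125% of windows were called. It was not called with the pair as a block, nor without KO replicate 1, KO replicate 2, or WT replicate 2. The block called 1 end for H3K4me3, 1 for H3K27me3, and 4 for H3K9me3, all lower in KO, when 0.333%, 0.166%, and 0.916% of all windows were called.

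Marks at the starts of genes in the ends were described next. Of 204 protein-coding genes that start there, 138 (67.6%) had at least 10 distinct H3K4me3 fragments within 1 kb of the start, compared with 57.4% of 20807 autosomal genes, and their median was 7.39 FPM against 3.08. Where at least 50% of the words in the bin were unique, 66.1% of 165 genes passed. For H3K27me3, 65 of 204 (31.9%) reached 10 fragments, beside 31.2% of all autosomal genes. For H3K9me3 it was 71 of 204 (34.8%) beside 15.4%, with 21.2% of the genes in mostly unique bins and 92.3% of the 39 others. These shares are descriptions, since deeper libraries pass the limit more easily. The 9 gene models in the satellite, Gm10722, Gm11168, Gm10721, Gm10720, Gm10719, Gm10718, Gm10717, Gm17535, and Gm10715, had the highest H3K4me3 of the ends, 352 to 692 FPM, but IgG there was 3471 to 7607. The 5 highest genes for H3K27me3 and for H3K9me3 were among them too. These gene models lie inside the satellite bins described above, and the sequence at their starts is at most 9.54% unique.

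Among genes in mostly unique bins, H3K4me3 was highest at Naa60, an N-terminal acetyltransferase gene on chr16, with 37.1 and 39.2 FPM in KO and 33.1 and 29.8 in WT. It was next at Zfp263, a zinc finger gene, with 32.3 ± 7.9, and at Tfb1m, a mitochondrial ribosomal RNA methyltransferase gene on chr17, with 29.7 and 32.1 in KO and 33.1 and 27.5 in WT. These levels exceeded 98.2% to 99.2% of all genes. The other 7 of the 10 highest were 1700037C18Rik, Cluap1, an intraflagellar transport gene, Chka, Pex11g, Bambi, Dusp18, and Rnf185, with means of 25.9 to 29.1. H3K27me3 at these 10 starts was at most 0.67 FPM. Crem, the transcriptional activator of the spermatid program, had 22.3 and 35.1 in KO and 19.1 and 22.9 in WT, with 0 fragments of H3K27me3. Genes noted after their values were seen include Suv39h2, a testis-enriched H3K9 methyltransferase, with 22.03 ± 6.4, Meig1, which is needed to build the sperm tail, with 15.3 ± 0.78, Tesmin, a testis-specific gene, with 24.5 ± 9.16, and Kmt5b, an H4K20 methyltransferase gene, with 6.84 ± 2.18. Gm2916, on chr14, was the highest gene outside the satellite with 77.2 ± 31.3, in a bin of which 1.19% of words are unique.

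In mostly unique bins, the 5 starts with the most H3K27me3 had means of 36.2 to 42.7 FPM. H3K27me3 WT replicate 2 held 200457 distinct fragments, so 1 fragment at a start is 4.99 FPM in that library. Cacng7, a neuronal calcium channel subunit gene on chr7, had 45.7 and 33.7 FPM in KO and 51.5 and 39.9 in WT, although IgG there reached 67.8 in WT replicate 1. Insr, the insulin receptor gene, had 49.1 and 21.1 in KO and 43.9 and 44.9 in WT, and its H3K4me3 was 0.39 ± 0.60. Kif3c, a kinesin gene on chr12, had 38.3 ± 7.2, Cpt1a, which carries fatty acids into mitochondria, 36.9 ± 11.7, and Unc93b1, a chaperone of Toll-like receptors, 36.2 ± 18.9. IgG was at 0 in all 4 libraries at Insr, Kif3c, Cpt1a, and Unc93b1, but its median over all autosomal starts was also 0. Of the genes listed by role, Cdk6, a cell cycle kinase gene, had 28.97 ± 7.4 and Dnmt3a, a de novo DNA methyltransferase, 25.4 ± 5.2, with H3K4me3 of 5.84 ± 2.61 and 1.13 ± 0.98. Hnf4g, a nuclear receptor gene, had 10.04 ± 5.1 with 0 fragments of H3K4me3. Xkr4, with 5.16 ± 1.64 of H3K4me3 and 9.21 ± 0.66 of H3K27me3, and Ghr, the growth hormone receptor gene, with 8.60 ± 2.49 and 7.85 ± 3.42, carried both. Mir290a, the first member of a microRNA cluster of embryonic stem cells, lies at chr7:3218626-3218708 and had 35.1 ± 15.8 of H3K27me3, 10.4 ± 1.8 of H3K4me3, and 0 fragments of IgG.

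Few genes had high levels of both marks. Outside tandem-repeat bins, 84 of 195 genes (43.1%) had at least 10 FPM of H3K4me3 and 37 (18.97%) had at least 10 of H3K27me3, and 1 gene (0.513%), Mboat7 on chr7, had both (10.2 and 16.9). Over all 20796 autosomal genes outside such bins the shares were 35.2%, 18.6%, and 0.803%. At 5 FPM of each, 14 genes (7.18%) had both, compared with 3.24% of all genes. These included Cdk6, Lyn, Myadm, Ppp1r14c, and Mos, the germ cell kinase gene, with 6.57 and 6.13. Of the 14, 3 were repeated genes of chr14 with at most 5.53% of words unique. H3K9me3 at gene starts was at least 10 FPM at 1 of the 195 genes (0.513%), compared with 0.202% of all genes. This was Sfi1, with 259 and 223 in KO and 223 and 184 in WT. IgG at its start was 10.9 ± 5.97, above 99.5% of all genes. The next in mostly unique bins were Cd209c with 1.63 ± 0.63, Olfr161 with 1.33 ± 0.59, Smtn with 1.13 ± 0.44, and Morc2a with 0.96 ± 0.58.

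**Figure D5:**
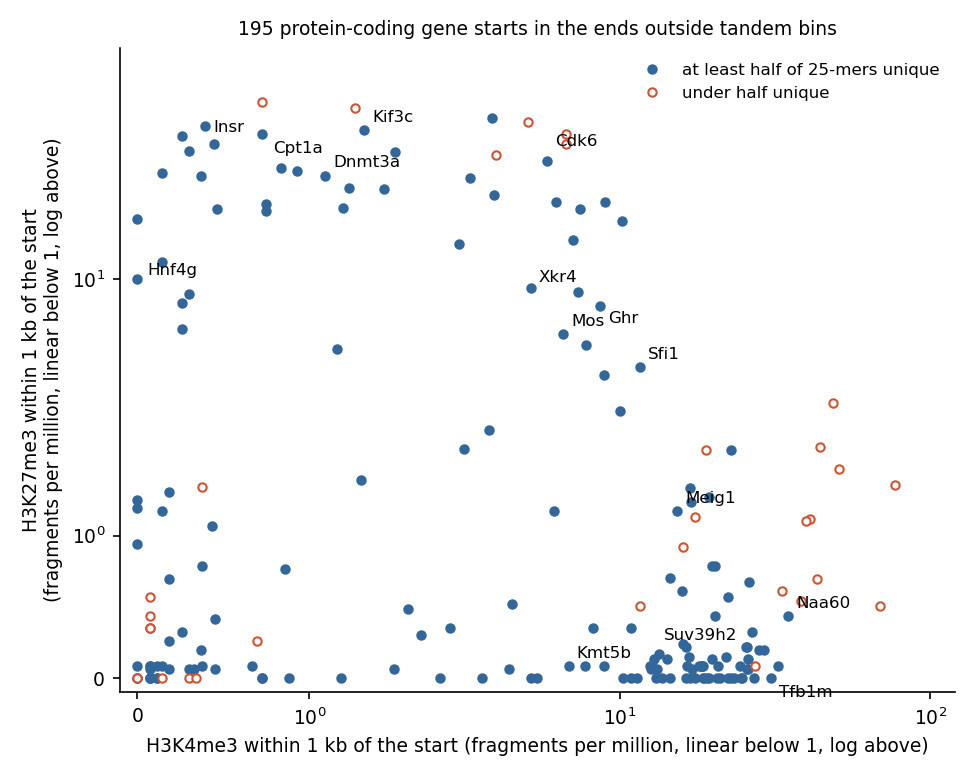
H3K27me3 (y axis) against H3K4me3 (x axis) within 1 kb of the start of 195 protein-coding genes of the ends outside tandem-repeat bins, in FPM averaged over 4 libraries, on axes that are linear below 1 and logarithmic above. Filled circles are the 165 genes in bins with at least 50% of 25-base words unique and open circles the 30 others. Genes with high levels of 1 mark mostly have little of the other, and 14 have at least 5 FPM of both.

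The promoters of 2 genes are printed to show the sequence under each mark, Tfb1m with H3K4me3 and Kif3c with H3K27me3. In both, the promoter entry lies within 100 bp of the annotated start. Neither gene has the most of its mark in mostly unique bins. Naa60 and Zfp263 had more H3K4me3, with IgG means of 5.34 and 4.65 FPM against 2.77 at Tfb1m. Cacng7 and Insr had more H3K27me3, with IgG means of 20.7 and 0 FPM against 0 at Kif3c. The printed promoters are RefSeq sequences of GRCm38.p6, from 250 bases before to 50 bases after the start. They are written in the direction of the gene, with each CpG in capitals. The Tfb1m promoter lies at chr17:3557706-3558005 on the minus strand and holds 16 CpG with 60% GC. The Kif3c promoter lies at chr12:3364882-3365181 on the plus strand and holds 15 CpG. Of the 204 genes, 150 matched the promoter table, and their 198 entries had a median of 13 CpG, compared with 7 over all 32851 entries. Both promoters were thus rich in CpG, and both lay in bins with over 90% of words unique.
Tfb1m promoter: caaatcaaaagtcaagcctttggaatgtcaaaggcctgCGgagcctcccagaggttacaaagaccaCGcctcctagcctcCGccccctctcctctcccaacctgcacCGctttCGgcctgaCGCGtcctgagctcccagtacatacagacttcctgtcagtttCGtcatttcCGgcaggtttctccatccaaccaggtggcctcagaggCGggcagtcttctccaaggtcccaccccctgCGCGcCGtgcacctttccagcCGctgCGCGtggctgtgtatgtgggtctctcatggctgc
Kif3c promoter: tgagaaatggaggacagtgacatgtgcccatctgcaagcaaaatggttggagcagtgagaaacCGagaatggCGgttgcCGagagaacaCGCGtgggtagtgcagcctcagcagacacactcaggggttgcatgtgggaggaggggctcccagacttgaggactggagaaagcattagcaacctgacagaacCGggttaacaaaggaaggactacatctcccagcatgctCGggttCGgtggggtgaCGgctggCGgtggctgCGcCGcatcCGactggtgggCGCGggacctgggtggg

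No gene of the ends differed in H3K4me3 between KO and WT in the fit over all 11949 genes that passed the limit, as limma-voom called 0 of 138, when 0% of all were called. At an unadjusted p under 0.05 there were 6 of the 138, when 3.48% of all genes were. Of the 138 genes, 83 (60.1%) were higher in KO, with a median log2 fold change of 0.06, compared with 67.9% and a median of 0.18 over all genes tested. The smallest unadjusted p among the named genes was at 1700037C18Rik, with 42.3 and 40.7 FPM in KO and 10.2 and 23.4 in WT, a log2 fold change of 1.16 with an SE of 0.37 and an adjusted p of 0.998. Bambi, a decoy receptor of TGF-beta signaling, had 39.3 and 29.5 in KO and 19.1 and 16.05 in WT, with a log2 fold change of 1.04 and an adjusted p of 0.998. Cluap1, which shares its upstream region with 1700037C18Rik, had 37.1 and 40.9 in KO and 10.2 and 23.8 in WT. The starts of these 2 genes are 112 bp apart, so nearly the same fragments were counted for both. In these genes the groups did not overlap, but the differences did not pass the test. KO libraries lay above WT libraries at 30 of the 138 genes (21.7%) and at 28.6% of all genes tested.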

How the data were processed

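AutoCUT&RUN had been performed on spermatids sorted from 2 pairs of KO and WT males, and the groups were taken from the titles in the labels. The authors sequenced 25 x 25 bp paired reads, aligned them to mm10 with Bowtie2 (version 2.3.4.3 per the submitters' processing notes), and deposited, for each library, the mapped fragments as positions on a chromosome with a length in bp, neither scaled nor pooled. Removal of PCR duplicates is described in the methods, but rows that share all coordinates are still present. A pair of reads that fits several places is reported at 1 of them, so positions in repeats are not unique.

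A fragment was placed by its midpoint and rows sharing all coordinates within a library were counted as 1, with all rows as an alternative. FPM values are fragments per 1000000. Those of bins, like shares and densities, are relative to distinct fragments on chr1-19, and those of gene starts, like the library sizes of the fits, to distinct fragments on chr1-19, X, and Y. Single values were compared by exact two-sided permutation tests. limma-voom was fitted to all windows, bins (at least 10 fragments), or gene starts, with Benjamini-Hochberg adjustment. Its weights were capped at their 99.9th percentile, because the satellite bins otherwise took nearly all of the weight. This departs from the test as first written, and uncapped weights are an alternative chosen after seeing the data, as are leaving out the chr9 end or the H3K27me3 library of KO replicate 2, and the block with median scaling. The ratio test used limma on log2 ratios with 0.5 added. Named bins and genes were the highest per target and a list by role. Since the satellite and its gene models filled the highest ranks, the highest outside them were added after their values were seen. A bin that these rules name is not reported here. Members and lists were chosen with earlier results of these data known.

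Same-numbered KO and WT libraries were taken as pairs, because the methods name 2 pairs of siblings and the titles of same-numbered libraries begin their bracketed part alike. Their deviations from the genotype means correlated at 0.381 for H3K4me3, 0.385 for H3K27me3, 0.417 for H3K9me3, and 0.165 for IgG across bins. That beginning of the titles is the same for all targets of a replicate number and differs between the numbers. The correlations therefore cannot tell siblings apart from anything else that libraries with the same beginning share. With 2 animals per genotype, all p-values rest on these animals only, and permutation p-values measure the spread between them. Those of limma also rest on a variance shared across the features of a fit. The SE of a single bin can therefore be smaller than the spread of its own animals. The reference assembly supplied repeats, gaps, gene starts, and sequences. Analyses used Python 3.11.15, NumPy 2.4.6, pandas 2.3.3, SciPy 1.17.1, matplotlib 3.10.9, R 4.3.3, and limma 3.58.1.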

Additional observations from a re-analysis of the deposited data

How the results depend on the processing

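Of 329 alternatives tried over 40 results, 262 were counted as unchanged. Sign-flip permutation tests of 4 animals cannot give a p below 0.125, nor permutation tests of 2 against 2 libraries one below 0.333. Their side of the threshold was thus fixed beforehand, and only a change of sign could count. For the fits the number of calls was compared, and for the bin of Gm3005 its direction and side of the threshold. Groups of 2 animals, the depth of IgG and of H3K27me3 replicate 2, and repeats that cannot be placed uniquely set the limits. Enough IgG fragments for a test lay in 6805 of the 246285 bins, and the shallowest library held 159611 distinct fragments. H3K27me3 replicate 2 held 711758 in KO and 200457 in WT, beside 3806026 and 2891646 in replicate 1. H3K4me3 against IgG turned from -2.38 to 0.34 without tandem-repeat bins, 0.26 as the median of the 19 ends, and 0.32 without the chr9 end. With no replicate block, the exact permutation p was 0.0286 for -2.38, -2.25, and 1.03. The KO difference in density turned sign for H3K4me3 (0.082 with all rows, 0.019 with fragments of at least 150 bp, 0.013 as the median of the ends, and 0.12 without replicate 2), H3K27me3 (-0.085 without replicate 2), and IgG (-0.025 as the median of the ends and -0.40 without replicate 1). Leaving out a pair gave 0.12 to -0.23 for H3K4me3, -0.085 to 1.52 for H3K27me3, and -0.40 to 0.62 for IgG.

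The small-to-large difference of ends and rest turned to 0.018 (H3K4me3), 0.80 (H3K27me3), and 0.80 (H3K9me3) with large fragments limited to 150 to 250 bp, to 0.19 (H3K27me3) and 0.11 (H3K9me3) without tandem-repeat bins, and to 0.028 with all rows and 0.12 without replicate 2 for H3K27me3, whose pairs ranged from -0.68 to 0.12. H3K9me3 rows per distinct fragment turned to -0.17 without tandem-repeat bins.

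Counts of calls moved as follows. With the replicate block, windows of H3K9me3 gave 2 calls (2 also with median scaling), and bins gave 0 for H3K4me3, 11 for H3K9me3, and 5 for IgG. With the block and median scaling, bins gave 0 for H3K4me3, 4 for H3K27me3, and 5 for IgG. The share of all bins called with both is not given for these 3 targets, so these counts cannot be read as an excess. The block gave 1, 1, 4, and 0 ratio windows for H3K4me3, H3K27me3, H3K9me3, and IgG. Bins of H3K4me3 numbered 0 by limma-trend, with all rows, and with at least 1 or 40 fragments, 2 with median scaling, and 3 with uncapped weights, which also gave 3 for H3K9me3 (of 24 and 6 in all). The share of all bins called with median scaling alone is not given, so its 2 bins cannot be read as an excess. A limit of 1 fragment gave 1 bin for IgG, and the share of all bins called at that limit is not given. Leaving out 1 library gave 0 to 17 bins for H3K4me3 (17 without WT replicate 2 and 13 without KO replicate 1, of 234 and 60 called in all) and 0 to 10 for H3K27me3 (10 without KO replicate 1, of 597 in all), 0 to 2 windows for H3K27me3, 6 to 12 windows for H3K27me3 against IgG, and 1 to 2, 0 to 1, and 0 to 1 ratio windows for H3K4me3, H3K27me3, and IgG. Median scaling called 19 ends for H3K9me3 against IgG, and all rows called 1 ratio window for H3K4me3. The bin of Gm3005 was at -1.33 without WT replicate 2 and turned to 0.35 without KO replicate 2. The block moved no other count by over 1.5 times. Without 1 library a genotype has 1 animal left, which is assumed to vary like the pair of the other genotype. The shares of all windows called are not given for the window counts without 1 library or the ratio window with all rows. These window counts therefore cannot be read as an excess. The cause of each change was not tested.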
